A study of Mus musculus with 6 samples.

Results

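DEAD-box RNA helicases were measured in leukemic cells from mice that received vehicle or AG636, an inhibitor of the pyrimidine synthesis enzyme DHODH. The family was taken as every protein-coding gene of the count table whose mouse GENCODE symbol is Ddx followed by a digit, leaving out Ddx58 and Ddx3y. This gave 35 of the 54838 genes in the table, 14 with proteins known for work in the nucleolus and 21 others. The comparison asks which helicases of this family changed under DHODH inhibition, and how the nucleolar members stand beside the others.

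DEAD-box proteins bind RNA and, using ATP, pull short duplexes apart or remodel RNA-protein complexes. They are named after a run of amino acids, Asp-Glu-Ala-Asp, in their ATP-binding core. Most act at 1 step in the life of an RNA: many assist ribosome assembly in the nucleolus, and others serve splicing, export of mRNA, translation, mRNA decay or mitochondrial ribosomes. Fast-growing cells, leukemic cells among them, make many ribosomes and so draw heavily on the nucleolar members.

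All 6 libraries came from the I1DN model, a murine acute myeloid leukemia on the C57BL/6 background that carries IDH1R132H, DNMT3AR882H and NrasG12D, which had been put into fetal liver progenitors with expression constructs. The controls therefore carried the same 3 alleles as the treated cells. Leukemic cells were transplanted into sublethally irradiated congenic Ptprca recipients. There were 3 mice given vehicle (Vehicle 1 to 3) and 3 given AG636 (AG636 1 to 3) b.i.d. by oral gavage at 100 mg/kg. Immature AML cells, cKit positive with low or absent CD11b, were sorted from bone marrow and spleen. The study's text is not uniform on how long these mice were treated, so no duration is given here. The ages of the mice were not given in the sources used here.

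Libraries held 4634963 to 7906589 counts, and 3 counts corresponded to 0.392 to 0.637 CPM (counts scaled to library size). Kit, which was used in the sort, was present at 38.6 ± 6.03 CPM with vehicle and 42.8 ± 4.80 CPM with AG636 (SD, n = 3 each). With Cd34 and Ptprc, 3 genes were listed as immature markers. They summed to 229.8 to 330.8 CPM with vehicle and 373.9 to 450.02 CPM with AG636, without overlap. Only Ptprc was called higher. It encodes CD45, which mature myeloid cells also carry, so the sum is not a measure of immature cells alone. Markers of other cells were also found. The summed level of 8 mature myeloid markers was 1039 to 2377 CPM with vehicle and 2899 to 5925 CPM with AG636, and 7 of the 8 were called higher. The 7 erythroid markers summed to 1641 to 4664 CPM with vehicle, highest in Vehicle 1, and to 1941 to 3221 CPM with AG636. Klf1, an erythroid transcription factor of that list, was called lower (log2 fold change -1.10 ± 0.28, edgeR adjusted p = 0.0238). The 6 monocyte and macrophage markers summed to 49.7 to 61.9 and 55.6 to 94.9 CPM. The 5 B cell markers summed to 6.78 to 14.6 and 14.6 to 19.5 CPM, and the 5 T cell markers to at most 3.01 and 3.40 CPM. No marker of these lists was at 0. The part of these cells in the results that follow was not tested, and a lower level in fewer cells cannot be told apart from a lower level in each cell.

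Of the 35 members, 33 had enough counts to be tested, all 14 nucleolar ones among them. With AG636, 12 members (36.4% of those tested) fell and 2 rose at an adjusted p under 0.05, by the quasi-likelihood test of edgeR, adjusted by Benjamini-Hochberg over the 11092 genes tested. Of all genes tested, 11.0% were called lower and 10.3% higher. The samples of the 2 groups did not overlap for 15 members that were lower with AG636 and for 2 that were higher, against 20.6% and 20.5% of all genes. A log2 fold change below 0 was seen in 25 of the 33, and the median was -0.39, beside 0.03 over all genes. Each of the 14 calls kept its direction whichever library was left out, but the number called lower depended on the libraries. Without Vehicle 1 it was 6 (18.2% of members tested, against 6.14% of all genes). It was 6 without Vehicle 2 (18.2% against 6.16%) and 14 without Vehicle 3 (42.4% against 11.5%). It was 3 without AG636 1 (9.09% against 5.54%), 10 without AG636 2 (30.3% against 10.5%) and 2 without AG636 3 (6.06% against 4.08%). Without AG636 1 or AG636 3 the shares of members and of all genes thus lay closer together than with all libraries. The 2 members called in all 6 of these fits were Ddx56 and Ddx39.

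**Figure D1:**
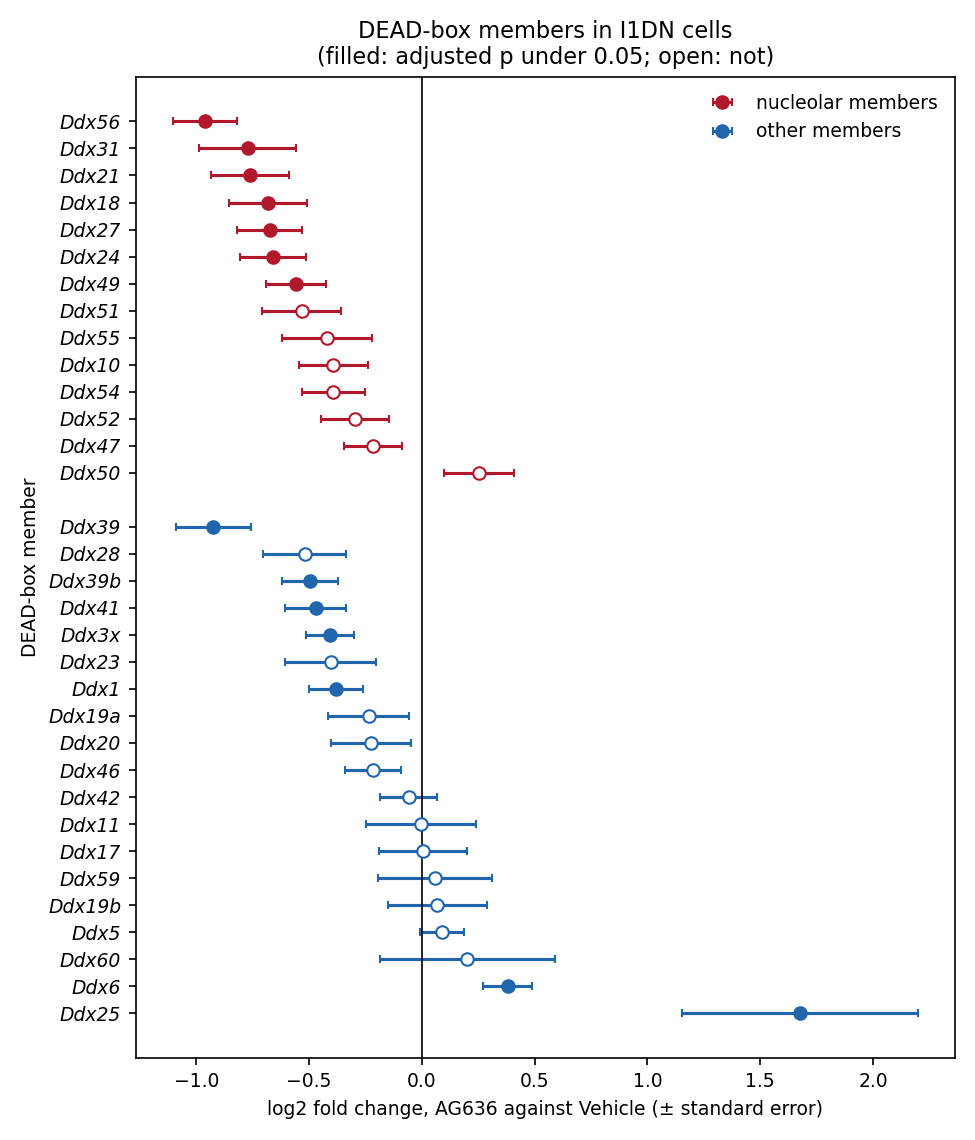
Log2 fold change (AG636 against Vehicle, 3 mice each) of the 33 tested DEAD-box members, one per row, with bars for ± 1 standard error; filled points passed an adjusted p of 0.05 in edgeR. Of the 14 nucleolar members (red) 13 lie left of 0, while the 19 others (blue) spread from -0.92 (Ddx39) to 1.68 (Ddx25).

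Nucleolar members had a median log2 fold change of -0.55, ranging from -0.96 to 0.25. Of these 14, 13 were below 0, 7 were called lower (50%) and none was called higher. The 19 tested members outside the nucleolus had a median of -0.22, with 12 below 0, 5 called lower (26.3%) and 2 called higher (10.5%). The shares of all genes were 11.0% lower and 10.3% higher, the second close to that of the other members. The difference of the medians was -0.33, and -0.25 with Ddx5 and Ddx17 counted as nucleolar. Members are not replicates of the treatment, so this difference is a description without a test. It also depends on the symbol rule. The other members include the DNA helicase gene Ddx11 and leave out the eIF4A genes, DEAD-box helicases given below that were all called lower. Averaged over the 14 nucleolar members, the log2 CPM of each sample relative to the mean of the vehicle samples was 0.14, -0.04 and -0.10 in Vehicle 1 to 3 and -0.47, -0.39 and -0.64 in AG636 1 to 3. Every AG636 sample was thus below every vehicle sample. For the other members the averages were 0.10, 0.06 and -0.16 with vehicle and -0.15, -0.02 and -0.15 with AG636, and these ranges overlapped. This average gives Ddx25, which rose by 1.68 on the log2 scale from few reads, the same weight as each other member. The part of Ddx25 in this overlap was not tested. Samples also differed within a group across the class: of the 14 nucleolar members, 10 were highest in Vehicle 1 among vehicle samples and 10 were lowest in AG636 3 among AG636 samples. Vehicle 1 also had the highest erythroid and the lowest mature myeloid sum of the vehicle samples, and the part of this in the result was not tested.

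**Figure D2:**
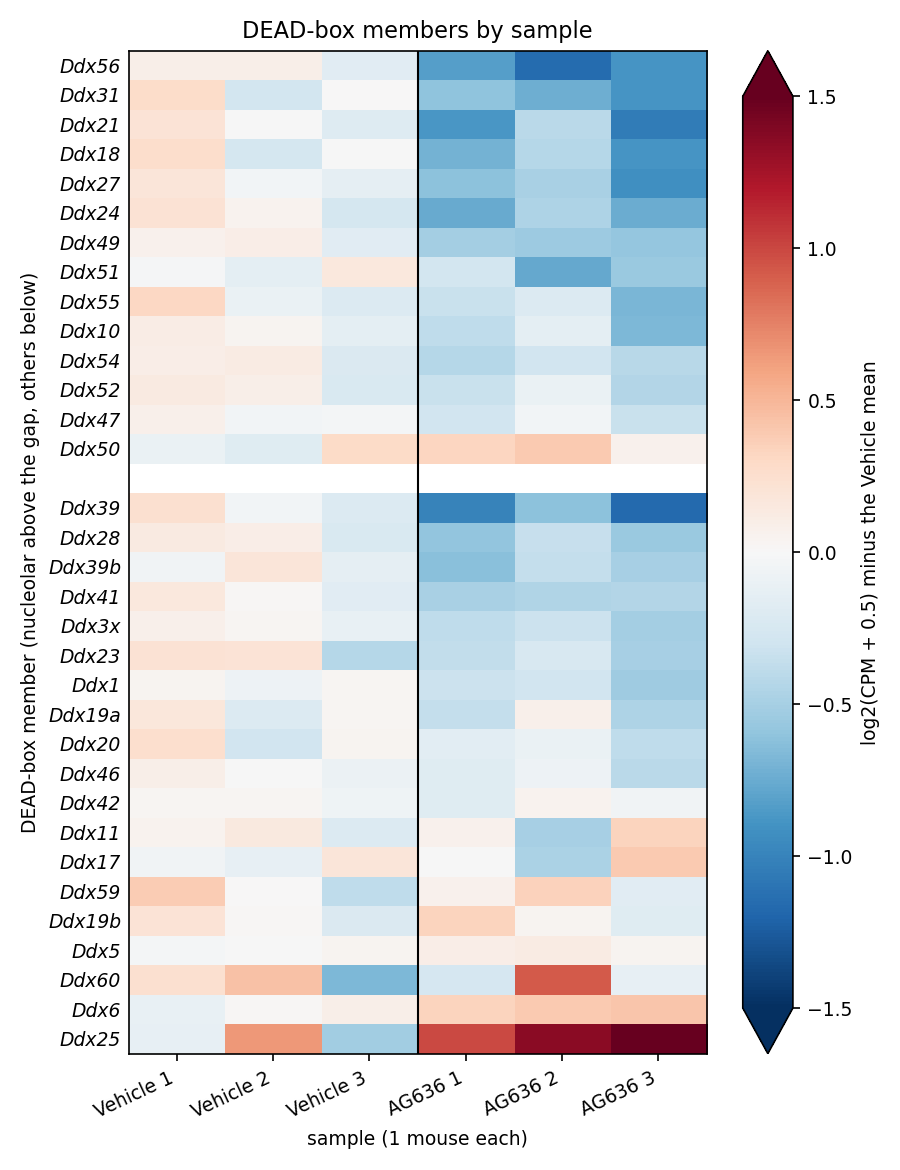
Level of each tested member (rows) in each of the 6 mice (columns), as log2(CPM + 0.5) minus the mean of the 3 vehicle samples; blue is lower and red is higher, and nucleolar members stand above the gap. The AG636 columns are blue for 13 of the 14 nucleolar members, Ddx50 being the exception, and mixed for the others.

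Ribosomes are built from 2 subunits, and 8 of the nucleolar members are counterparts of yeast helicases that assemble the large one. All 8 had a log2 fold change below 0, with a median of -0.67, and 5 were called lower (62.5%, beside 11.0% of all genes). Ddx56 (chr11:6258919-6267772 in GRCm38), which acts on late large-subunit precursors, was at 103, 103 and 86.3 CPM in Vehicle 1 to 3 and at 54.4, 43.5 and 52.5 CPM in AG636 1 to 3. The groups were well apart, and the AG636 mean was 51.4% of the vehicle mean. Its log2 fold change was -0.96 ± 0.14 (SE) with an adjusted p of 0.004 in edgeR, and its highest adjusted p with a library left out was 0.0231.

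Ddx27 (chr2:167015193-167034947), the counterpart of yeast Drs1, had 198, 170 and 159 CPM with vehicle and 114, 124 and 91.9 CPM with AG636. No sample overlapped, and the log2 fold change was -0.68 ± 0.15 (edgeR adjusted p = 0.0129). With 1 library left out, the call was lost only without AG636 3. Ddx24 (chr12:103407982-103425830), the counterpart of yeast Mak5, stood at 383, 340 and 273 CPM in the vehicle samples and at 195, 239 and 197 CPM in the AG636 samples. It fell by 0.66 ± 0.15 on the log2 scale (edgeR adjusted p = 0.0146), and was called in 3 of the 6 fits that leave out a library.

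Ddx18 (chr1:121553835-121567989), the counterpart of Has1, was measured at 128, 88.9 and 107 CPM with vehicle and 65.2, 79.0 and 57.4 CPM with AG636. The lowest vehicle sample, Vehicle 2, lay near the highest AG636 sample, AG636 2. The log2 fold change was -0.68 ± 0.17 (edgeR adjusted p = 0.0218, called in 3 of 6 fits with a library left out). Ddx31 (chr2:28840406-28905571), the counterpart of Dbp7, is a gene of low count here, with 24.6, 16.6 and 20.3 CPM in vehicle samples and 13.2, 12.0 and 10.8 CPM in AG636 samples. Its change of -0.77 ± 0.21 had an edgeR adjusted p of 0.0303 and was called in 2 of the 6 fits. The other 3 of this role did not pass: Ddx51 at -0.53 (edgeR adjusted p = 0.0546), Ddx55 at -0.42 (0.156) and Ddx54 at -0.39 (0.0719). Ddx51 and Ddx54 nevertheless showed no overlap between the groups, while Ddx55 did.

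The small-subunit processome is the particle that folds and cuts the precursor of the small-subunit RNA. Its 4 members had a median log2 fold change of -0.34, and 1 was called lower (25%, beside 11.0% of all genes). Ddx49 (chr8:70292866-70302489), the counterpart of yeast Dbp8, had 71.9, 73.8 and 61.0 CPM with vehicle and 48.0, 46.8 and 45.7 CPM with AG636. The AG636 samples were close together and below all vehicle samples, with a log2 fold change of -0.56 ± 0.13 (edgeR adjusted p = 0.0180, called in 2 of 6 fits with a library left out). Exons of Ddx49 overlap those of Homer3 on the other strand, which had 568 counts against 1954 and a log2 fold change of 0.77 (edgeR adjusted p = 0.0709). Ddx10 (-0.39, edgeR adjusted p = 0.0903), Ddx52 (-0.30, 0.185) and Ddx47 (-0.22, 0.245) did not pass, and their groups overlapped.

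Promoters of Ddx27 and Ddx49 are shown because both genes fell and both carry a match to the ETS-type motif CCGGAAG. The match lies at the start of transcription given by RefSeq. By the gene coordinates given above, both genes begin further upstream and the motif lies inside them. The sequences are from RefSeq (GRCm38.p6), run from 250 bases before to 50 after the start, and have the motif in capitals, beginning 2 and 8 bases before the start. Ddx27 lies on the plus strand (chr2:167015063-167015362) and Ddx49 on the minus strand (chr8:70302422-70302721).
Ddx27: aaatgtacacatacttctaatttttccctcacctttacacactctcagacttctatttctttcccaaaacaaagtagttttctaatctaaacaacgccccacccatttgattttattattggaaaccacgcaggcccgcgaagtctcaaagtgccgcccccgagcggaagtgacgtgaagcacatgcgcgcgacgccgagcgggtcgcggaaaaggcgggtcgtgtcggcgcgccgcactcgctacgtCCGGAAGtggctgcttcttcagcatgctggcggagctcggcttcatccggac
Ddx49: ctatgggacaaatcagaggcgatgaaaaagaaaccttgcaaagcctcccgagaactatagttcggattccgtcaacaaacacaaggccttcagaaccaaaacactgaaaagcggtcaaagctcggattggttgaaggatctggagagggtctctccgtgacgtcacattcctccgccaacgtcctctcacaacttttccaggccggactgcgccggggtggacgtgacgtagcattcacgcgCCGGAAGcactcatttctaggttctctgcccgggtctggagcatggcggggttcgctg

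Promoters were found for 31 members, all 14 nucleolar ones among them. CCGGAAG, on either strand, was in 7 of the 14 nucleolar promoters (50%) and in 4 of the 17 others (23.5%). It was in 22.6% of genes tested with a promoter and in 9.93% of all 27025 genes with a promoter. It was present in Ddx10, Ddx27, Ddx47, Ddx49, Ddx50, Ddx54 and Ddx55, of which 2 were called lower, and absent from the windows of Ddx18, Ddx21, Ddx24, Ddx31 and Ddx56, which were also called. The E-box CACGTG, the motif that MYC binds, was in 0 of the 14 nucleolar promoters and 4 of the 17 others (23.5%), beside 12.3% of genes tested. The 17 others include Ddx4 and Ddx43, which were not tested, and Ddx4 holds an E-box. A gene with several promoters was counted if any of them matched. AAGATGG, the core of the YY1 motif, was in 1 of 14 (Ddx47) and 1 of 17 (Ddx1), beside 8.93% of genes tested. A match describes the letters in a window and not a bound site.

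Ddx21 and Ddx50 are neighbours on chromosome 10 and near relatives, both known as nucleolar RNA helicases of the type named RNA helicase II. Ddx21 (chr10:62580251-62602281), which assists transcription of ribosomal RNA and its processing, was at 793, 687 and 602 CPM with vehicle and at 376, 520 and 332 CPM with AG636. All AG636 samples were below all vehicle samples, and the log2 fold change was -0.76 ± 0.17 (edgeR adjusted p = 0.0150). This was called in 4 of the 6 fits that leave out a library. Ddx50 (chr10:62615895-62651218) was at 89.0, 83.6 and 116 CPM with vehicle and at 119, 125 and 99.5 CPM with AG636. These ranges overlapped, and its log2 fold change of 0.25 ± 0.16 (edgeR adjusted p = 0.266) was the only one above 0 among the nucleolar members.

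The log2 ratio of Ddx21 to Ddx50 was 3.15, 3.03 and 2.37 in Vehicle 1 to 3 and 1.66, 2.06 and 1.73 in AG636 1 to 3. It did not overlap between the groups, with means of 2.85 ± 0.42 and 1.82 ± 0.21 (SD, n = 3 each) and a difference of -1.04. The 2-sided exact permutation test gave p = 0.1, the smallest value 3 against 3 samples allow, and 0.2 after adjustment over the 4 pairs compared. Ddx39b to Ddx39 ratios were 0.80, 1.31 and 1.16 with vehicle and 1.47, 1.36 and 1.76 with AG636, also without overlap, and differed by 0.43 (exact p = 0.1, adjusted 0.2). The difference was 0.12 for Ddx5 to Ddx17 (exact p = 0.8, adjusted 0.8), and turned to -0.12 without AG636 2. For Ddx19a to Ddx19b it was -0.31 (exact p = 0.4, adjusted 0.533).

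**Figure D3:**
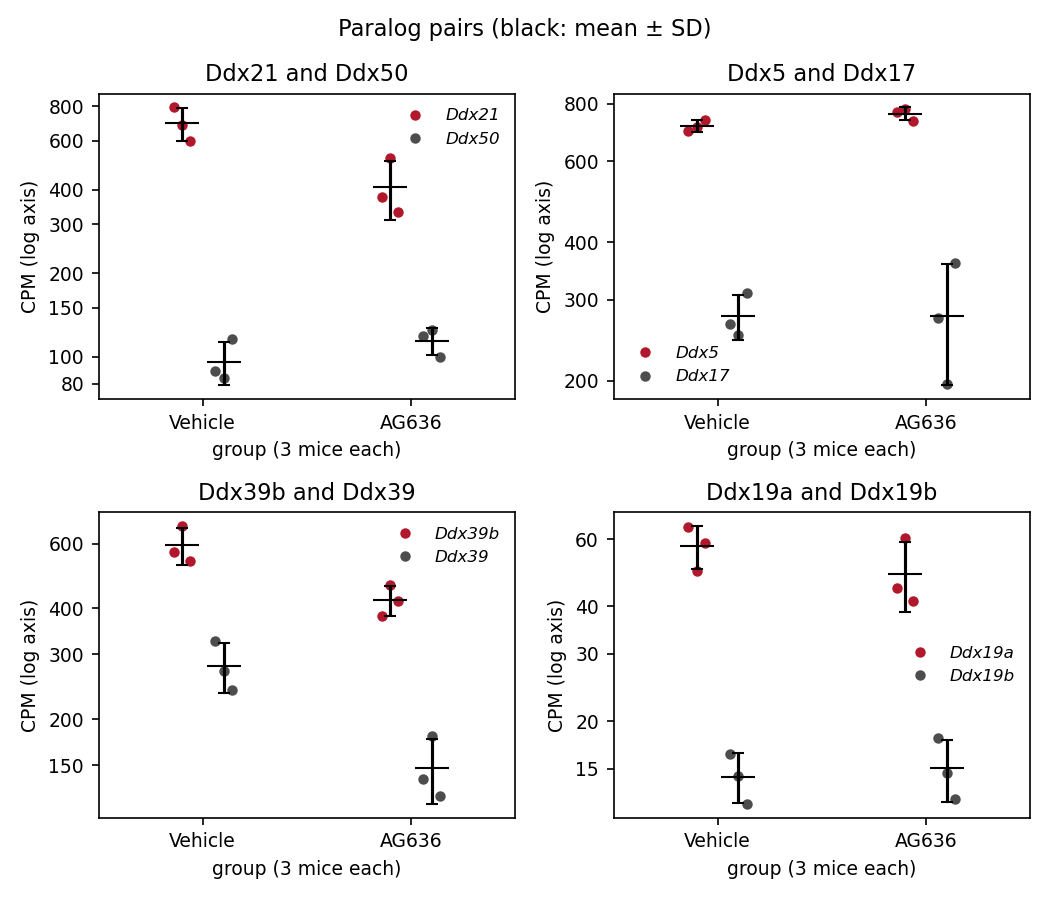
Levels of 4 pairs of related members in the 3 mice of each group, in CPM on a log axis; each dot is a mouse, and black lines give mean ± SD. Ddx21 falls from 694 to 409 CPM while Ddx50 lies between 83.6 and 125 CPM, both Ddx39b and Ddx39 are lower with AG636, and the groups overlap for Ddx17, Ddx19a, Ddx19b and Ddx5.

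Outside the nucleolus, the change furthest below 0 was in mRNA export. Ddx39 (chr8:83715177-83726892) encodes a helicase that loads export factors onto mRNA. It was at 327, 270 and 241 CPM with vehicle and at 138, 180 and 123 CPM with AG636, with no overlap, and the AG636 mean was 52.7% of the vehicle mean. Its log2 fold change was -0.92 ± 0.17 (edgeR adjusted p = 0.00685). With a library left out, the edgeR adjusted p was at most 0.033. Exons of Ddx39 overlap those of Adgre5 on the other strand, which had 2010 counts against 7229 and a log2 fold change of 0.50 (edgeR adjusted p = 0.0592).

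Ddx39b (chr17:35241746-35253707), its close relative and the counterpart of yeast Sub2, works in splicing and in the TREX export complex. Its levels were 571, 671 and 539 CPM in vehicle samples and 383, 462 and 418 CPM in AG636 samples. The groups were apart, and the log2 fold change was -0.50 ± 0.12 (edgeR adjusted p = 0.0215, called in 3 of 6 fits with a library left out). Ddx19a (-0.24, edgeR adjusted p = 0.362) and Ddx19b (0.07, 0.846), which release mRNA from export factors at the nuclear pore, did not pass. They are near-identical neighbours, so reads could be shared between them.

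All 5 splicing members had a log2 fold change below 0, with a median of -0.23, and 1 was called lower (20%, beside 11.0% of all genes). Ddx41 (chr13:55530410-55536658), a spliceosome component that is mutated in some familial myeloid leukemias, was at 74.2, 67.5 and 59.1 CPM with vehicle and at 47.4, 48.7 and 48.9 CPM with AG636. The AG636 samples were close together and below the lowest vehicle sample. Its change of -0.47 ± 0.14 (edgeR adjusted p = 0.0345) was called in 1 of the 6 fits with a library left out, and was not called when library size alone was used for scaling. Ddx23 (-0.40, edgeR adjusted p = 0.176), Ddx20 (-0.23, 0.390), Ddx46 (-0.22, 0.229) and Ddx42 (-0.06, 0.770) did not pass. With library size alone, which moved the median of all genes from 0.03 to 0.12, the members below 0 went from 25 to 23, while 13 of the 14 nucleolar ones stayed below 0.

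Members of translation, decay and tRNA splicing went both ways. Ddx3x (chrX:13280970-13294052), which helps ribosomes scan structured mRNA leaders, had 776, 753 and 681 CPM with vehicle and 565, 586 and 515 CPM with AG636. It fell in every AG636 sample below the vehicle range, by 0.41 ± 0.11 on the log2 scale (edgeR adjusted p = 0.0254, called in 2 of 6 fits with a library left out). Reads of Ddx3x could be shared with its Y-linked copy. Ddx1 (chr12:13216973-13249213), a subunit of the tRNA ligase complex, was at 130, 120 and 129 CPM with vehicle and at 101, 103 and 87.2 CPM with AG636. The samples did not overlap, yet the change of -0.38 ± 0.12 was close to the threshold (edgeR adjusted p = 0.0486) and passed in 0 of the 6 fits with a library left out.

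Ddx6 (chr9:44604892-44640731), which represses translation and promotes decay of mRNA in P-bodies, rose. It was at 205, 224 and 235 CPM in Vehicle 1 to 3 and at 279, 290 and 295 CPM in AG636 1 to 3. Every AG636 sample exceeded every vehicle sample, and the log2 fold change was 0.38 ± 0.11 (edgeR adjusted p = 0.0334, called in 1 of 6 fits with a library left out, and 0.0745 without the filter on low counts). Ddx25, a helicase of male germ cells, was called higher from few reads. It had 4, 12 and 2 counts with vehicle and 10, 14 and 23 with AG636, or 0.713, 1.57 and 0.418 CPM and 2.12, 2.89 and 4.34 CPM. The log2 fold change was 1.68 ± 0.52 (edgeR adjusted p = 0.0455, called in 1 of the 6 fits, and not by DESeq2). The other germline members, Ddx4 and Ddx43, had at most 5 and 6 counts in a library and were not tested.

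Ddx5 and Ddx17, paralogs that coactivate transcription and remodel nascent RNA, did not pass. Ddx5 was at 699, 710 and 738 CPM with vehicle and at 768, 780 and 733 CPM with AG636, with a log2 fold change of 0.09 ± 0.10 (edgeR adjusted p = 0.538). Ddx17 was at 265, 252 and 311 CPM and at 274, 197 and 360 CPM. The log2 fold change, 0.01 ± 0.19 (edgeR adjusted p = 0.985), turned negative in 8 of the alternatives. AG636 samples spread more widely than the vehicle samples, with 197 CPM in AG636 2. Ddx28, which assists assembly of the mitochondrial large subunit, had -0.52 (edgeR adjusted p = 0.0689) without overlap of the groups. Its exons overlap those of Dus2 on the other strand, which had 439 counts against 710 and fell by 1.39 on the log2 scale (edgeR adjusted p = 0.00522). The remaining members were the DNA helicase gene Ddx11 (-0.00, edgeR adjusted p = 0.991), Ddx59 (0.06, 0.890), whose exons overlap a noncoding gene on the other strand, and the interferon-inducible Ddx60 (0.20, 0.739), and their groups overlapped.

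RNA helicases outside the rule were taken from a list of 33 symbols, which held Mtrex also under its older name Skiv2l2. Of these, 32 were in the count table and 30 were tested. In this list 21 had a log2 fold change below 0 and the median was -0.18. Of those tested, 9 (30.0%) were called lower and none higher, beside 11.0% and 10.3% of all genes. The DEAD-box proteins that go by another name, the eIF4A group, were all called. Eif4a1, the helicase that unwinds mRNA leaders for the small subunit, was at 688, 577 and 678 CPM with vehicle and at 385, 359 and 369 CPM with AG636. The gap between the groups was wide, with a log2 fold change of -0.80 ± 0.11 (edgeR adjusted p = 0.0032), called in all 6 fits with a library left out. This gene has pseudogenes that could take some of its reads.

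Eif4a2, its paralog, fell from 166, 170 and 206 CPM to 100, 114 and 127 CPM, a log2 fold change of -0.66 ± 0.14 (edgeR adjusted p = 0.0119). Eif4a3, of the exon junction complex, went from 565, 589 and 503 CPM to 369, 424 and 373 CPM (-0.51 ± 0.11, edgeR adjusted p = 0.0143), and was called in 3 of the 6 fits with a library left out. None of the 3 had overlapping groups. Of 16 DEAH-box relatives 4 were called lower. Dhx29, which helps the small subunit scan structured leaders, was at 85.2, 79.8 and 72.5 CPM with vehicle and at 48.6, 37.9 and 34.5 CPM with AG636 (-0.97 ± 0.16, edgeR adjusted p = 0.00501). Dqx1 was at 14.3, 11.4 and 14.8 CPM and at 2.34, 5.16 and 4.34 CPM, a log2 fold change of -1.76 ± 0.31 (edgeR adjusted p = 0.00606). Dhx37 and Dhx15 were the other DEAH-box genes called, in 2 and 1 of the 6 fits with a library left out. Of 4 Ski2-like helicases 2 were called lower (Snrnp200 and Mtrex, each in 2 of those 6 fits). The 7 Upf1-like ones had a median of 0.14, with 5 above 0, and 0 were called. Across the helicase list, the groups did not overlap for 13 genes that were lower and 3 that were higher. The shares of all genes were 20.6% and 20.5%.

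Proteins that bind members formed a list of 23, with 22 tested. Of these, 17 were below 0, and the median was -0.37. Calls were lower for 9 (40.9%) and higher for none, beside 11.0% and 10.3% of all genes. The 3 proteins of the PeBoW complex, which works with Ddx27 on the large subunit, were all called. Wdr12 was at 213, 181 and 167 CPM with vehicle and at 88.6, 115 and 78.1 CPM with AG636 (-0.99 ± 0.16, edgeR adjusted p = 0.00521). Bop1 was at 90.8, 83.5 and 71.0 CPM and at 48.6, 38.6 and 37.2 CPM (-0.98 ± 0.16, edgeR adjusted p = 0.00475), and Pes1 had a log2 fold change of -0.48 (0.029, called in 2 of the 6 fits with a library left out). For Ddx27 and for each of these 3 partners, every AG636 sample was below every vehicle sample.

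Ddx20 is the helicase of the SMN complex, which assembles spliceosomal particles, and 2 of its 3 tested partners were called lower. Gemin5, which binds the small nuclear RNAs, was at 82.2, 62.3 and 57.7 CPM with vehicle and at 34.4, 33.8 and 25.7 CPM with AG636 (-1.11 ± 0.18, edgeR adjusted p = 0.00529), and Smn1 was also called lower at -0.56 (0.0178, called in 4 of those 6 fits). Of the 3 partners of Ddx1, 1 was called lower and 1 had a log2 fold change above 0 (Fam98b, 0.14). The one called, Fam98a, was at 84.5, 77.4 and 74.8 CPM and at 41.0, 41.9 and 40.6 CPM (-0.94 ± 0.13, edgeR adjusted p = 0.00298). Of the 6 listed partners of Ddx39b, the export adaptor Alyref and 5 THO proteins, 3 were called lower (Thoc1, Thoc5 and Thoc6, in 1, 2 and 2 of the 6 fits with a library left out). None of the 6 partners of Ddx6 was called, and all of their groups overlapped. Gle1, which activates Ddx19a and Ddx19b at the pore, was at -0.04 (edgeR adjusted p = 0.832).

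**Figure D4:**
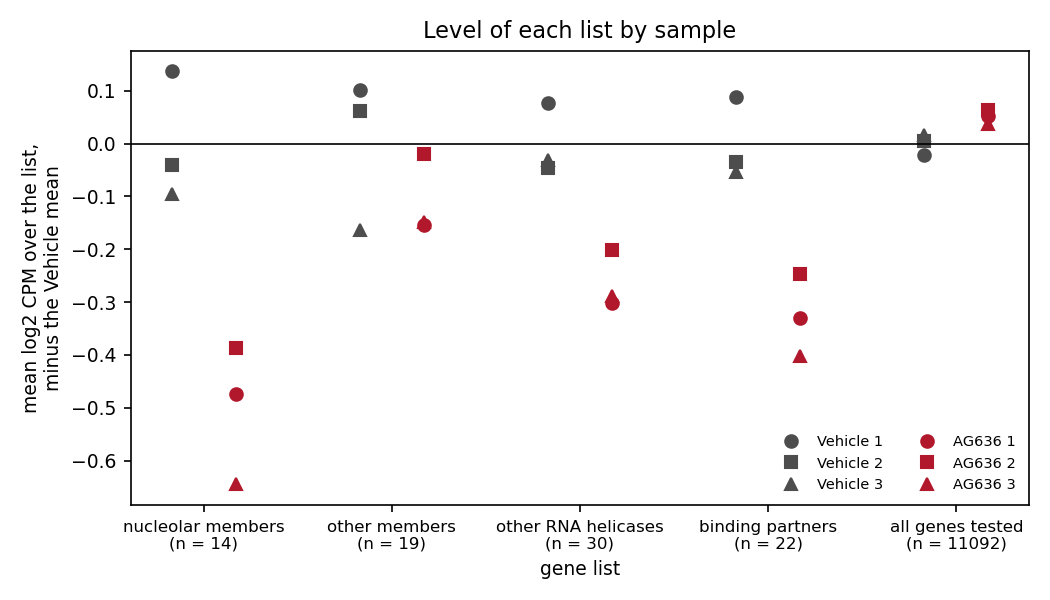
Mean log2 CPM of the tested genes of each list in each mouse, minus the mean of the 3 vehicle samples; gray is Vehicle, red is AG636, and the symbol gives the replicate number. In AG636 samples, nucleolar members lie at -0.39 to -0.64 and the other RNA helicases at -0.20 to -0.30. The binding partners lie at -0.25 to -0.40. Each of these lists is without overlap with Vehicle, while the other members overlap between groups. All 11092 genes stay near 0 but also do not overlap, at -0.02 to 0.02 with Vehicle and 0.04 to 0.06 with AG636.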

How the data were processed

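RNA-seq counts of sorted I1DN cells were analysed for 3 Vehicle and 3 AG636 mice, with groups and replicate numbers taken from the sample titles. The authors deposited raw counts of reads per gene. Libraries were made with the QuantSeq 3′ kit, which reads the end of each transcript, and a longer gene does not gain counts from its length. Per the submitters' processing notes, reads were trimmed with cutadapt 1.9.1, mapped to mm10 (GRCm38) with HISAT2 2.0.4 and counted with featureCounts (Subread 1.5.0-p3). The annotation release, the strand setting and the handling of multi-mapping reads are not given in the sources used here. Reads of genes that overlap on opposite strands may therefore be mixed.

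GENCODE vM21 gave a symbol to 54809 identifiers, 98.7% of them at the same coordinates. The fit used edgeR 4.0.16 under R 4.3.3 (filterByExpr, minimum count 10 and minimum total 15, TMM, quasi-likelihood test), and calls had a Benjamini-Hochberg adjusted p under 0.05 over all 11092 genes. The standard error was the size of the log2 fold change divided by the square root of F. Paralog ratios were log2 with 0.5 CPM added, compared by exact permutation. The floor of 3 counts covers counting error only. Replicates of a group differed by a chi-square of 6.22 to 14.6 per degree of freedom, more than sampling noise gives, and each was counted separately. Each library came from 1 mouse, and p-values measure the spread between these mice. The mice were recipients of thawed leukemic cells from a moribund donor mouse. Whether all received the same leukemia was not given in the sources used here, so they may not be independent leukemias. The fit was also run on counts simulated from its own model, with changes larger than those of most called members. That run does not bear on the smaller changes.

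The members, their roles, the helicase, partner and marker lists and the tests were chosen with earlier results of these data known. Every tested member was counted under its role, and full values were given for the 14 called members and for Ddx21, Ddx50, Ddx5, Ddx17, Ddx3x, Ddx6 and Ddx41. From the other 2 lists, up to 4 called genes of each by lowest adjusted p and the eIF4A genes were given in full. Other genes were named with their calls where a count was 5 or fewer or where exons overlapped, and were chosen after their values were seen. Alternatives were DESeq2 1.42.0, limma-voom (limma 3.58.1), other scalings and filters, a replicate block, a stricter threshold, a wider and a narrower nucleolar class, another pseudocount for the ratios and leaving out each sample. A comparison of protein motifs was planned and not run, because no protein sequences were used here. Calls of the other erythroid markers are not reported here.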

Additional observations from a re-analysis of the deposited data

How the results depend on the processing

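The 14 calls kept their direction in every alternative, with 337 values computed for the 26 genes given in full: 272 stayed on the same side of the threshold, 57 lost the call and 8 changed sign, all 8 for Ddx17. Its log2 fold change of 0.01 became -0.002 with DESeq2, -0.024 with limma-voom, -0.0017 with size factors by the median of ratios, -0.0195 without a filter, -0.031 with a replicate block, -0.03 without Vehicle 1, -0.06 without Vehicle 2 and -0.23 without AG636 3 (the lowest with a sample left out; the highest was 0.20, without AG636 2). At an adjusted p under 0.01, 2 members, 1 nucleolar member, 1 other member, 3 other RNA helicases and 4 partners were called lower, and 0 members higher, beside 2.93% and 2.08% of all genes. Leaving out a sample gave 2 to 14 members called lower (1 to 8 nucleolar, 1 to 6 others) and 0 to 1 higher, 4 to 10 other RNA helicases and 4 to 11 partners. The 2 members called higher became 1 with DESeq2 and 1 without a filter (Ddx6 was lost). There was also 1 with at least 10 counts in every sample. Of all genes, 10.5%, 7.19% and 10.5% were called higher in these settings. Members called lower were 13 with DESeq2 (12.0% of all genes) and 13 without a filter (7.58%), where the lower call of Ddx1 was lost. With library size alone, 3 of the other members were called lower (Ddx1 and Ddx41 were lost), the median was -0.095 for other RNA helicases and -0.28 for partners, and over all genes 913 were called lower and 1483 higher (38.1% lower of those called, against 51.6%). With a sample left out, medians ranged from -0.60 to -0.53 (nucleolar), -0.29 to -0.10 (other members), -0.26 to -0.17 (other helicases) and -0.46 to -0.29 (partners), and the difference of nucleolar and other members from -0.44 to -0.25. The pair difference ranged from -1.27 to -0.89 for Ddx21 and Ddx50, -0.12 to 0.36 for Ddx5 and Ddx17, 0.29 to 0.55 for Ddx39b and Ddx39, and -0.49 to -0.12 for Ddx19a and Ddx19b. With Ddx5 and Ddx17 in the nucleolar class, its median was -0.48.

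Same-numbered samples are different mice, and their deviations from the group means correlated at -0.06, -0.18 and 0.22, so the numbers do not pair them. With the replicate block, 10 members were called, all lower, with 3 of them outside the nucleolus and 0 higher, beside 9.43% and 8.24% of all genes; Ddx1, Ddx6, Ddx25 and Ddx41 were lost. Genes of few counts, such as Ddx25, are limited by depth: 1 library had 2 counts.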
